A study of Mus musculus with 2 samples.

Results

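The 31 genes described here take glucose into the cell and carry it through glycolysis: 3 glucose transporters, 12 genes of upper glycolysis, 6 of lower glycolysis, 4 genes of lactate production and transport, 3 pyruvate dehydrogenase kinases, the regulator Hif1a and 2 genes that open the pentose phosphate pathway. They were chosen by symbol from the 32285 genes of the feature table, where all 31 were found. The rule used no measured value, but the choice was made with earlier results of these data known. They were followed through marker-gated cell classes of 2 single-cell libraries of mouse gingiva, the gum tissue around the teeth. The normoglycemic library came from wild-type mice, and the diabetic library from such mice given streptozotocin, which destroys beta cells of the pancreas, as a model of type 1 diabetes. All animals were Cre-negative (CD11CCre-/-;FoxoLL) on a mixed C57B6 - FVB background, so both groups carried loxP sites around exon 2 of Foxo1, and no recombinase, and the protein is described as normal. Both groups had bacterially induced inflammation for 2 weeks and then a waiting period of 2 weeks, and ages are not given. Cells of 4 mice were pooled per library and sorted for the leukocyte protein CD45, with dead, endothelial and red blood cells removed and with a 20% enrichment of cells that also bear CD11c. Each condition is thus 1 library, no difference could be set against replicates, and every interval below covers counting error only.

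Glucose enters through SLC2A transporters and is trapped as glucose 6-phosphate by hexokinases. Phosphofructokinase commits it to glycolysis under the control of PFKFB enzymes, and the lower steps yield pyruvate. Pyruvate leaves as lactate through lactate dehydrogenase and SLC16A transporters or enters mitochondria, an entry that pyruvate dehydrogenase kinases restrain. Neutrophils and activated macrophages are known to depend on glycolysis, and HIF-1, whose alpha subunit Hif1a encodes, switches on many of these genes in low oxygen.

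After filtering, 10948 normoglycemic and 10260 diabetic cells remained, with medians of 5302 and 4632 unique molecular identifiers (UMIs, tags that count each captured RNA molecule once). The libraries shared 32 barcodes. A cell joined a class when the share of that class's markers it expressed led every other class by at least 0.1, with at least 3 markers detected. Counts below name the normoglycemic library before the diabetic one. Neutrophil-like cells numbered 5605 and 5176, monocyte-like cells 767 and 711, macrophage-like cells 1343 and 1194, and conventional dendritic-like cells 666 and 474. Alpha-beta T-like cells numbered 636 and 238, gamma-delta or type 17 T-like cells 191 and 162, and B-like cells 282 and 146. These 7 classes had at least 100 cells in each library and were compared. The median cell of these classes expressed between 58.3% and 91.7% of its own markers. Salivary gland transcripts were much more abundant in the diabetic library: the 8 secretory epithelial markers summed to 16.7 and 1932 counts per 1000000 UMIs (CPM) in neutrophil-like cells, and to 2.44 and 693 CPM in monocyte-like cells. Cells called female by Xist made up 69 and 266 of the neutrophil-like cells, beside 2902 and 1946 called male by Y-linked transcripts. Among macrophage-like cells, 434 and 479 were called female and 576 and 440 male, so the balance of calls differed between classes. Cells with both kinds of transcript or neither had no call, so the calls cover only part of the 5605 and 5176 neutrophil-like cells. A value over all cells can thus lie outside those of both sex calls. The part of free salivary RNA and of the mice's sex in the differences below was not tested beyond the values given.

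Levels are CPM of the UMIs summed over a class. In 3' UMI data each molecule is counted once whatever its length, so levels can be compared between genes, apart from differences in capture. The 31 genes together took the largest share of UMIs in monocyte-like cells, 0.837% and 0.747%. Neutrophil-like cells followed with 0.628% and 0.640%, and B-like cells had the lowest shares, 0.210% and 0.164%. Monocyte-like cells were the highest of the 7 classes for 15 genes in the normoglycemic library and 14 in the diabetic one, 13 of them in both. These were mostly enzymes: Gapdh, the glyceraldehyde phosphate dehydrogenase, reached 1572 and 1631 CPM, and Pkm, the pyruvate kinase, 1011 and 925 CPM. Neutrophil-like cells were highest for 7 genes in each library, 6 in both, and among these were the glucose transporters, Slc16a3 and the PFKFB enzymes. The same class was highest in both libraries for 24 of the 31 genes.

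**Figure D1:**
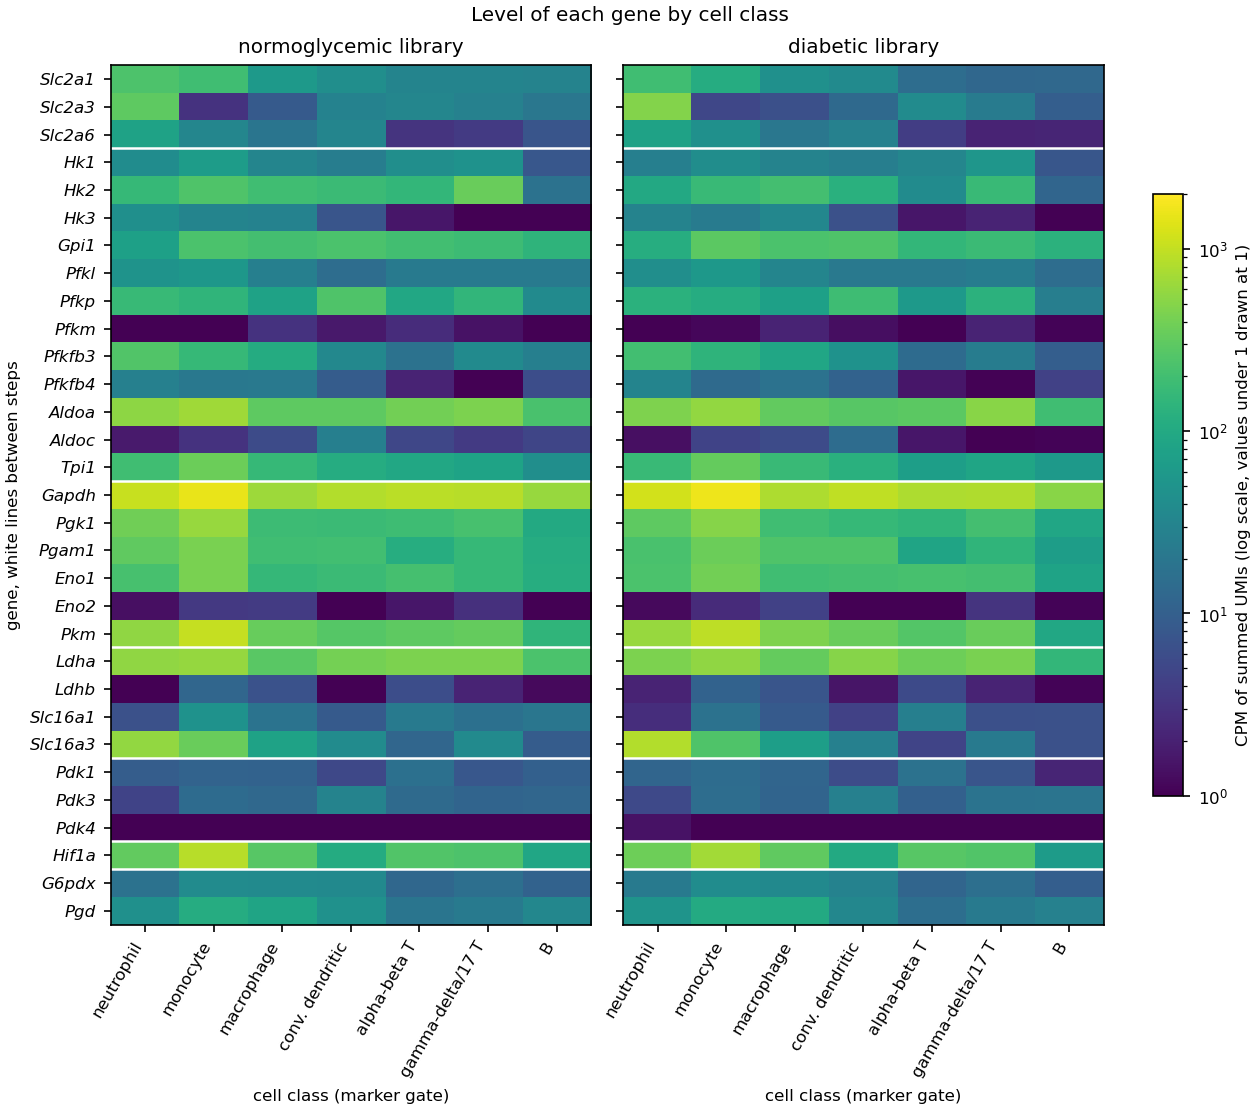
Level of each of the 31 genes (rows, grouped by step) in the 7 classes (columns) of the normoglycemic and the diabetic library, as CPM of summed UMIs on a logarithmic colour scale. Monocyte-like cells are brightest for many but not all of the enzymes, among them Gapdh, Pgk1, Eno1 and Pkm. The brightest cell of Slc2a3 and Slc16a3 is in neutrophil-like cells in both libraries.

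Between the libraries, few of the 31 genes differed by 1.5-fold or more in myeloid classes. A gene was measured in a class at 10 CPM or more in either library, and its ratio is diabetic over normoglycemic. In neutrophil-like cells 24 genes were measured, of which 2 were at least 1.5-fold higher in the diabetic library (Slc2a3 and Gpi1) and 2 lower (Hk1 and Hk2). Of all 4619 genes measured there, 17.1% were that much higher and 11.7% lower. The median log2 ratio of the 24 was -0.08 (95% order-statistic interval over the genes -0.36 to 0.20), and that of all genes 0.16. Scaling by trimmed mean of M-values (TMM), which shifted all neutrophil log2 ratios by -0.23, gave 0 higher and 7 lower beside 7.19% and 19.1% of all genes. In monocyte-like cells 26 were measured, with 0 higher and 3 lower (Slc2a1, Hk1 and Slc16a1), beside 8.71% and 8.74% of all genes (0 and 5 with TMM scaling, beside 6.67% and 11.1%). Their median was -0.21 (-0.40 to -0.07), and that of all genes 0.02. Of 25 genes measured in macrophage-like cells, 0 were higher and Slc16a1 alone was lower (2.63% and 3.92% of all genes), with a median of 0.10, and TMM scaling gave the same counts beside 2.66% and 3.86%. Of 24 in conventional dendritic-like cells, 0 were higher and Slc2a3 and Aldoc were lower (4.45% and 6.96% of all genes), with a median of -0.10. TMM scaling again gave the same counts, beside 4.73% and 6.75%.

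Before TMM scaling, lymphoid classes had more of the 31 genes lower in the diabetic library than myeloid classes, and fewer UMIs behind them. They also had larger shares of all genes lower. In alpha-beta T-like cells 23 genes were measured. Slc2a1, Hk2, Pfkp and Slc16a3 were lower (17.4%) and 0 higher, beside 16.2% and 7.29% of all genes. The share lower was thus near that of all genes. With TMM scaling 3 were lower and 0 higher, beside 13% and 9.64%. The median was -0.30 (-0.41 to -0.08) beside -0.11 for all genes. In gamma-delta or type 17 T-like cells 22 were measured. Of these, 5 were lower (22.7%: Slc2a1, Hk2, Pfkfb3, Slc16a1 and Slc16a3) and 1 higher (Pdk3), beside 17% and 7.75% of all genes. With TMM scaling 4 were lower and 1 higher, beside 13.6% and 10.8%. In B-like cells 21 were measured, 8 lower (38.1%) and 1 higher (4.76%), beside 26.4% and 7.56% of all genes. The 8 were Slc2a1, Slc2a3, Pfkfb3, Pgam1, Pkm, Ldha, Slc16a1 and Pdk1, the higher gene was again Pdk3, and the median was -0.52 (-0.66 to -0.22) beside -0.25 for all genes. With TMM scaling, which shifted B-like log2 ratios by 0.23, 5 were lower and 2 higher, beside 15.5% and 12.8%. The neutrophil marker list, a sign of neutrophil RNA in other cells, moved the same way in these classes: its 12 genes summed to 3153 and 620.2 CPM in gamma-delta or type 17 T-like cells and to 2632 and 615 CPM in B-like cells. The part of that RNA in the lymphoid values was not tested.

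Many of these calls, though not all, differed between cells called male and cells called female. Of the 3 members called lower in monocyte-like cells, all 3 stayed past 1.5-fold in cells called male (524 and 338 cells) and 0 in cells called female (49 and 182). Of the 20 members there whose interval lay on 1 side of 1, 6 lay wholly on the other side in cells called female: Pfkfb3, Pgk1, Eno1, Pkm, Slc16a1 and Hif1a. In neutrophil-like cells 3 of 23 did so (Hk3, Pfkfb3 and Pgk1, with 69 and 266 cells), and Slc16a3 was the 1 of 19 in macrophage-like cells. The few neutrophil-like cells called female also differed in level from those called male, in both directions. Pgd was at 74.0 and 94.3 CPM in them, beside 45.0 and 45.8 CPM in cells called male. Slc2a1 was at 139 and 143 CPM, beside 248 and 206 CPM. Whether both calls hold the same kind of cell was not tested. No such member lay wholly on the other side of 1 in cells called male in any of the 7 classes. Those cells are part of the class they are set against. In neutrophil-like and monocyte-like cells they were most of the called cells, so a turn there was unlikely from the start. Of the 4 neutrophil calls, Hk1 and Hk2 stayed past 1.5-fold in cells called male and Slc2a3 in cells called female. In macrophage-like cells the Slc16a1 call was kept in both. Those called female (434 and 479 cells) also had Pkm (1.69, 1.58 to 1.81), Hif1a (1.64, 1.51 to 1.78) and Pgam1 (1.60, 1.46 to 1.74) past 1.5-fold higher. Pfkfb4 was lower there (0.661, 0.497 to 0.876). In macrophage-like cells called male these ratios were 1.33, 1.06, 1.17 and 0.965. Both calls in conventional dendritic-like cells were kept in cells called female and 0 in cells called male. In B-like cells 8 of the 9 calls were kept in cells called female and 2 in cells called male, with 41 to 124 cells behind each. Of the 4 calls in alpha-beta T-like cells, 4 were kept in cells called male and 3 in cells called female. Gamma-delta or type 17 T-like cells kept 3 of 6 calls in cells called male and 4 in cells called female.

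**Figure D2:**
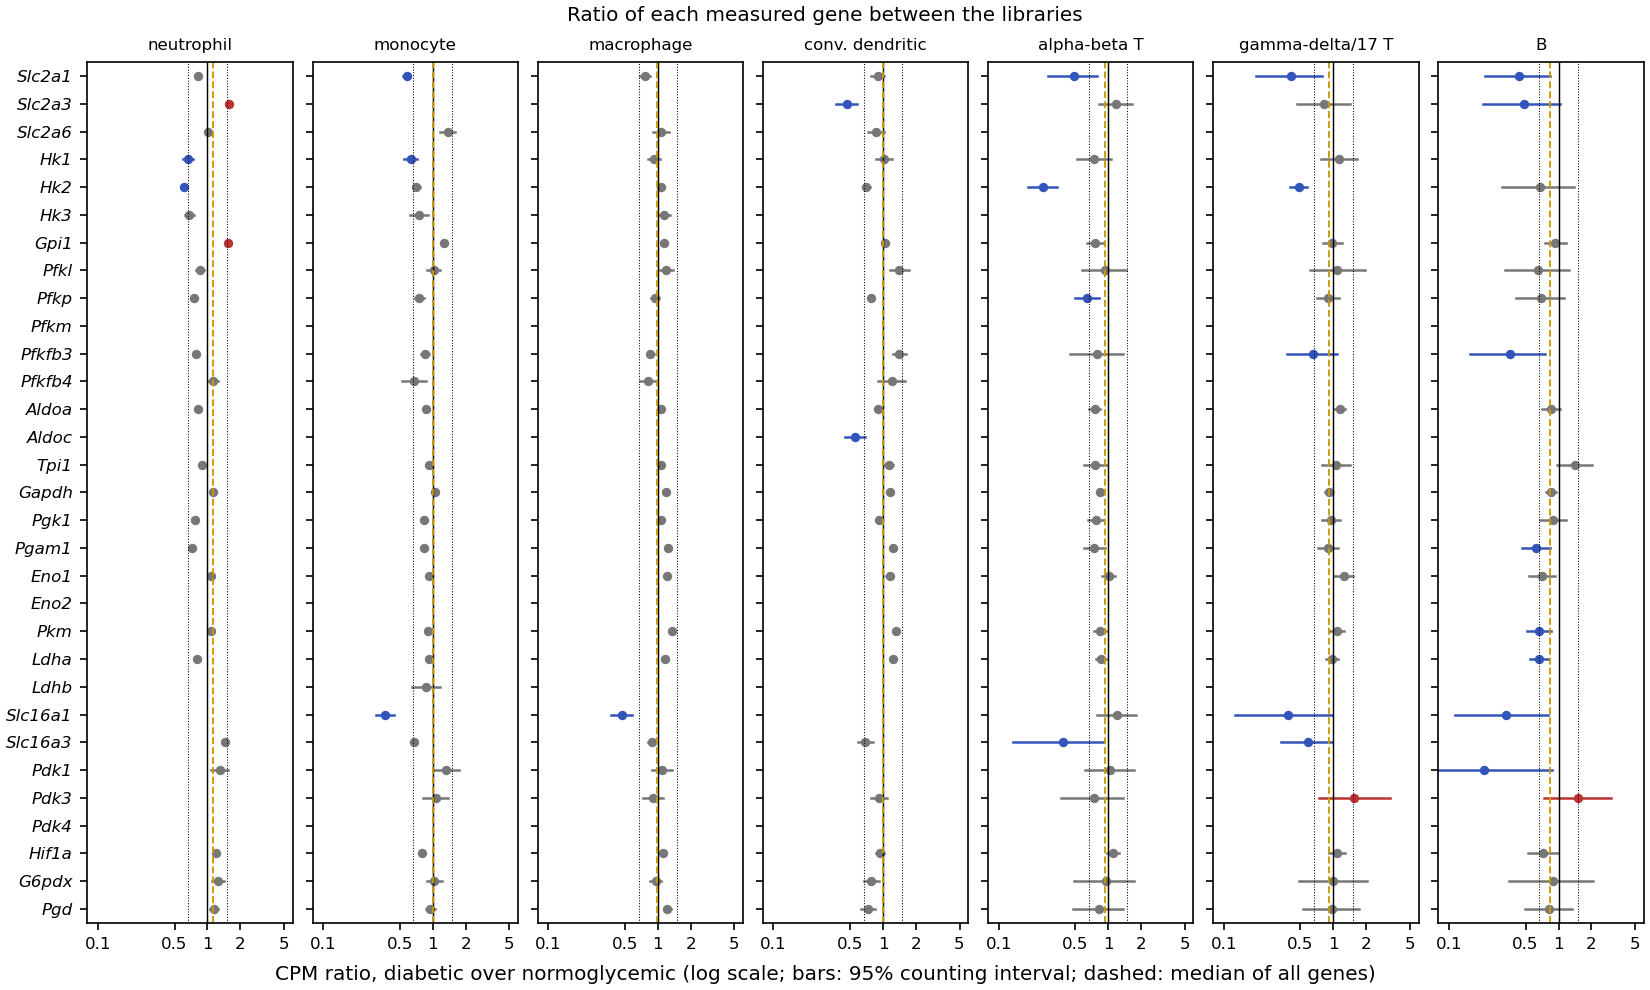
Ratio of CPM, diabetic over normoglycemic, for each gene measured at 10 CPM or more in either library (points, log axis) with its exact 95% counting interval (bars), by class. Red points are at least 1.5-fold higher, blue at least 1.5-fold lower after a pseudocount of 0.5 UMIs, dotted lines mark 1.5-fold, and the dashed line is the median of all genes. Blue points outnumber red in the T-like and B-like classes, while in neutrophil-like cells Slc2a3 and Gpi1 stand to the right and Hk1 and Hk2 to the left.

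Promoter sequences are shown for Hk2 and Slc16a1, which were among the members with the widest differences between the libraries. Each is the 250 bases before the gene's RefSeq start, 5′ to 3′ on the gene's strand, in build GRCm38. Capitals mark ACGTG, a core of the hypoxia response element to which HIF-1 binds, on either strand (CACGT on the other).
Hk2, chr6:82774455-82774704, minus strand: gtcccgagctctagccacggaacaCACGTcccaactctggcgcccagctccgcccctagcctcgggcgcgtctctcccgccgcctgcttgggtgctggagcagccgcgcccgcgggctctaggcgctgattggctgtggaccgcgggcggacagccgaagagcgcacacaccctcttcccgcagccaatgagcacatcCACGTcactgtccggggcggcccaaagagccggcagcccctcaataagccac
Slc16a1, chr3:104638414-104638663, plus strand: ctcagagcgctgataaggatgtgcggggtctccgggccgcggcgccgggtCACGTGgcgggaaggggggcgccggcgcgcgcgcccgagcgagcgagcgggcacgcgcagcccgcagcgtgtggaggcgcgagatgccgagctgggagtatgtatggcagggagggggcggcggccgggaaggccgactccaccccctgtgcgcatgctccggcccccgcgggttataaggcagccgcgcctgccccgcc
Hk2 held 2 separate matches. The 2 matches of Slc16a1, 1 on each strand, overlap in a single CACGTG, which is also the E-box that MYC and related factors bind. ACGTG occurred in 16.6% of all 32841 promoter windows of this length in the table, and in 17 of the 44 windows (38.6%) of the 30 members listed there. The members with a match included Slc2a1, Slc16a3, Ldha, Pgk1, Pfkfb3 and Hif1a. The other core, GCGTG, occurred in 28.2% of all windows and in 24 of the 44. A match describes the letters only, and these data hold no measure of binding.

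At the first step, transport, the classes used different genes. Slc2a1 encodes GLUT1, the widely expressed basal glucose transporter, Slc2a3 encodes the high-affinity GLUT3, and Slc2a6 encodes GLUT6, found in leukocyte lysosomes. In neutrophil-like cells Slc2a1 stood at 242 and 197 CPM and Slc2a3 at 305 and 483 CPM. Slc2a3 was thus higher in the diabetic library, with a ratio of 1.58 (1.54 to 1.63), and Slc2a1 lower, with 0.817 (0.786 to 0.849). TMM scaling brought the Slc2a3 ratio to 1.35, below 1.5-fold, and it was 1.44 in cells called male and 3.10 (2.41 to 4.04) in cells called female. Slc2a3 therefore made up 48.7% of the UMIs of the 3 transporters in the normoglycemic library and 63.5% in the diabetic one, a share that no scaling of the libraries changes. In monocyte-like cells, by contrast, Slc2a3 was at 3.02 and 4.99 CPM and Slc2a1 made up 84.4% and 69.2%. Monocyte-like cells also held 4507 and 2566 CPM of the 12 neutrophil markers, beside these low Slc2a3 levels.

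Slc2a1 had a ratio below 1 in all 7 classes, with total-UMI and with TMM scaling, although the interval in conventional dendritic-like cells reached 1.03 and the ratio was 1.03 (0.792 to 1.34) in neutrophil-like cells called female. Its clearest difference was in monocyte-like cells, at 195 and 112 CPM with a ratio of 0.578 (0.532 to 0.627). After thinning every cell to 1000 UMIs, 15.6% and 11.1% of those cells had a Slc2a1 UMI (69.2% and 53.3% before thinning). B-like cells, a class of low level, gave 4.64% and 1.37%. The Slc2a1 ratio in monocyte-like cells was 0.588 in those with classical markers such as Ly6c2 and 0.605 in those with Arg1 and other inflammatory markers. It was 0.658 (0.590 to 0.732) among cells called male and 0.848 (0.629 to 1.16) among the 49 and 182 cells called female.

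Slc2a3 in conventional dendritic-like cells went the other way from neutrophil-like cells, at 28.7 and 13.5 CPM with a ratio of 0.469 (0.376 to 0.581). Both dendritic subsets were lower: 13.2 and 5.08 CPM in type 1-like cells, 35.8 and 21.7 CPM in type 2-like cells. The share of type 2-like cells itself differed, with 464 of 666 and 262 of 474 cells. Thinned to 1000 UMIs, 2.11% of cells had a Slc2a3 UMI in each library, so this difference rests on the full depth alone. The ratio was 0.666 in cells called male and 0.305 in cells called female. When classes were taken from clusters it was 0.737, and the summed neutrophil markers in these cells were also lower, at 1635 and 701 CPM. The part of neutrophil RNA in this difference was not tested. Slc2a6 was at 79.6 and 80.8 CPM in neutrophil-like cells and at 33.0 and 45.1 CPM in monocyte-like cells, with none of the classes where it was measured at 1.5-fold.

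In upper glycolysis, hexokinases showed the widest differences. Hk2 encodes the inducible hexokinase bound to mitochondria, Hk1 the constitutive form and Hk3 a form typical of myeloid cells. Hk2 supplied most hexokinase UMIs in each of the 7 compared classes, from 65.7% to 88.1% in the normoglycemic library and from 53.3% to 79.7% in the diabetic one. Gamma-delta or type 17 T-like cells had the highest normoglycemic level, 356 CPM, and 171 CPM in the diabetic library, a ratio of 0.481 (0.400 to 0.576). In alpha-beta T-like cells Hk2 was at 152 CPM (573 UMIs) and 38.6 CPM (49 UMIs), a ratio of 0.254 (0.186 to 0.340). Both T-like classes thus had less Hk2 per UMI in the diabetic library, and in these 2 classes every alternative setting kept the ratio past 1.5-fold.

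Regulatory T-like cells expressed several of a list of markers such as Foxp3, Il2ra and Ctla4, and Foxp3 itself was not required. They made up 295 of 636 and 75 of 238 alpha-beta T-like cells. Within them Hk2 was at 93.2 and 46.0 CPM, and in the other alpha-beta T-like cells at 202 and 34.7 CPM, a ratio of 0.171 (0.113 to 0.250). The difference in Hk2 was therefore present on both sides of that split. Of alpha-beta T-like cells thinned to 1000 UMIs, 8.04% (6.05 to 10.4) and 3.78% (1.74 to 7.06) had an Hk2 UMI, beside 1.43% and 0.685% of B-like cells. Unthinned shares were 24.4% and 14.7%.

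Neutrophil-like cells had 162 and 99.2 CPM of Hk2, a ratio of 0.614 (0.582 to 0.646). Hk1 was at 40.4 and 26.8 CPM, a ratio of 0.664 (0.600 to 0.735), and Hk3 had a ratio of 0.683 (0.620 to 0.752). All 3 hexokinases were thus lower there over all cells, but in cells called female Hk3 was at 18.0 and 36.5 CPM (10 and 65 UMIs), a ratio of 2.02 (1.03 to 4.41). In monocyte-like cells Hk2 was at 244 and 173 CPM and Hk1 at 66.7 and 42.0 CPM, with an Hk1 ratio of 0.588 in cells called male and 0.986 (0.612 to 1.65) in cells called female. Macrophage-like cells did not share this: Hk2 stood at 192 and 204 CPM, a ratio of 1.06 (1.01 to 1.12). As a result the class with the highest Hk2 level was gamma-delta or type 17 T-like in the normoglycemic library and macrophage-like in the diabetic one.

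Phosphofructokinase was mostly Pfkp, the platelet-type subunit, which gave 61.4% to 93.5% of the UMIs of the 3 subunits in the normoglycemic library and 61.5% to 89.2% in the diabetic one. It was highest in conventional dendritic-like cells, at 243 and 189 CPM, and its ratio was below 1 in all 7 classes with both scalings, lowest in alpha-beta T-like cells at 0.644 (0.497 to 0.824). Pfkl, the liver-type subunit, was highest in monocyte-like cells (56.5 and 57.5 CPM), and Pfkm, the muscle-type subunit, stayed below 10 CPM in all 7 classes. Pfkfb3, which makes the allosteric activator fructose 2,6-bisphosphate, was at 255 and 199 CPM in neutrophil-like cells. Its ratio was 0.778 there, 0.847 in monocyte-like and 0.851 in macrophage-like cells, and 1.41 in conventional dendritic-like cells. In cells called female it was 1.35 (1.05 to 1.75) in neutrophil-like and 2.68 (1.97 to 3.73) in monocyte-like cells, above 1 in both. Sub-classes lay further apart: 1.90 (1.62 to 2.22) in type 2 dendritic-like cells, at 38.2 and 72.5 CPM, and 0.569 (0.496 to 0.653) in Arg1 monocyte-like cells, at 343 and 195 CPM. These sub-classes were described after their values were seen. Mature dendritic-like cells, with only 48 and 49 cells, had 354 and 298 CPM of Pfkfb3, above the 7 compared classes. Pfkfb4 was highest in neutrophil-like cells at 27.3 and 30.7 CPM.

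Among the remaining upper enzymes, Gpi1 and Aldoc each reached 1.5-fold in a single class. Aldoa, the main aldolase and the most abundant upper gene in all 7 classes, was at 555 and 457 CPM in neutrophil-like cells and at 667 and 577 CPM in monocyte-like cells. Gpi1, the phosphoglucose isomerase, was at 74.3 and 114 CPM in neutrophil-like cells, a ratio of 1.54 (1.45 to 1.63). That ratio was 1.32 with TMM scaling, 1.25 in cells called male and 1.46 in cells called female. The 1.54 also covers the cells without a sex call. Aldoc, a second aldolase, was above 10 CPM in conventional dendritic-like cells alone, at 26.6 and 14.9 CPM, a ratio of 0.559 (0.452 to 0.690). It was 0.844 (0.629 to 1.13) in cells called male and 0.304 (0.185 to 0.476) in cells called female. Tpi1, the triose phosphate isomerase, ranged from 42.7 to 359.5 CPM over the classes of the normoglycemic library and from 59.7 to 331 CPM in the diabetic one. Summed over its 12 genes, upper glycolysis had a ratio of 0.827 (0.815 to 0.839) in neutrophil-like cells and 0.673 (0.625 to 0.724) in alpha-beta T-like cells, but 1.05 (1.03 to 1.07) in macrophage-like cells.

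Lower glycolysis did not differ less than upper glycolysis in every class. As CPM, its summed ratio showed the smaller difference in neutrophil-like, monocyte-like and both T-like classes. It showed the larger difference in macrophage-like, conventional dendritic-like (1.16 beside 0.914 for upper glycolysis) and B-like cells (0.793 beside 0.864). The 6 genes of lower glycolysis summed to 2540.3 and 2564 CPM in neutrophil-like cells. That ratio of 1.01 (0.998 to 1.02) became 0.863 with TMM scaling. In monocyte-like cells the 6 genes summed to 4076 and 3838 CPM. In macrophage-like cells they summed to 1544 and 1876 CPM, a ratio of 1.21 (1.19 to 1.24). Gapdh was the most abundant member in every class, with ratios from 0.845 to 1.18. Pkm in macrophage-like cells, at 341 and 456 CPM, had a ratio of 1.34 (1.29 to 1.38). It was 1.33 in cells called male and 1.69 (1.58 to 1.81) in cells called female. In B-like cells, at 145 and 95.5 CPM, the Pkm ratio was 0.660 (0.511 to 0.847). There it was 0.433 (0.284 to 0.646) in cells called male and 1.04 (0.701 to 1.53) in cells called female. Within neutrophil-like cells the order was mixed: Pgam1, the phosphoglycerate mutase, was at 312 and 227 CPM and Pgk1, the X-linked phosphoglycerate kinase, at 389 and 301 CPM, while Eno1, the main enolase, was at 216 and 233 CPM. The Pgk1 ratio was 0.769 in neutrophil-like cells called male and 1.33 (1.11 to 1.61) in the few called female. Eno1 has a near-identical relative in the feature table, Eno1b, with 455 and 294 UMIs in all cells, so its counts may be split. Eno2, the neuronal enolase, was below 10 CPM in all 7 classes, but reached 103 and 47.8 CPM in mast-like cells (40 and 38 cells).

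At the lactate step, Ldha, which turns pyruvate into lactate, was high in every class, from 230.0 to 603 CPM in the normoglycemic library and from 153 to 562 CPM in the diabetic one. Its ratio lay between 0.810 in neutrophil-like and 1.23 in conventional dendritic-like cells, except in B-like cells, where it was 0.665 (0.544 to 0.809), with 0.974 (0.724 to 1.30) in cells called male and 0.519 (0.349 to 0.751) in cells called female. Ldhb, which favours the reverse reaction, reached 10 CPM in monocyte-like cells alone (12.4 and 10.8 CPM). Over all cells Ldhb was at 3.97 and 10.8 CPM. The diabetic library also held more fibroblast-like (22 and 251), mural-like (6 and 244) and keratin epithelial-like cells (8 and 90). The part of these cell numbers in the Ldhb difference was not tested. Within fibroblast-like cells Ldhb was at 28.5 and 35.2 CPM and within mural-like cells at 131 and 73.6 CPM, with 5 to 165 UMIs behind each value.

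The lactate exporter Slc16a3, which encodes MCT4, and Slc16a1, which encodes MCT1, a carrier for import and export, divided the classes. Slc16a3 was at 577 and 842 CPM in neutrophil-like cells, the highest class, with a ratio of 1.46 (1.43 to 1.49) and 1.25 after TMM scaling. In monocyte-like cells it was lower in the diabetic library, at 357 and 243 CPM, a ratio of 0.682 (0.644 to 0.722), which was 0.741 in cells called male and 1.03 (0.836 to 1.29) in cells called female. Slc16a1 was highest in monocyte-like cells of the normoglycemic library, at 48.0 CPM, and at 17.7 CPM in the diabetic one, a ratio of 0.368 (0.302 to 0.448). Macrophage-like cells had 18.3 and 8.52 CPM, a ratio of 0.467 (0.374 to 0.579). Slc16a1 was thus the gene with the lowest ratio of all members measured in both classes, and in neutrophil-like cells it was low throughout, at 6.62 and 2.72 CPM. In alpha-beta T-like cells it was not lower, at 22.3 and 26.8 CPM (0.783 to 1.81), and it made up 64.6% and 85.0% of the UMIs of both carriers there, against 11.9% and 6.77% in monocyte-like cells.

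The Slc16a1 difference in monocyte-like cells was present in both sub-classes, with a ratio of 0.309 in Arg1 cells (109 and 33.7 CPM) and 0.480 in the others (28.6 and 13.7 CPM). It differed between sex calls. Cells called male had 46.2 and 13 CPM (524 and 338 cells), a ratio of 0.280 (0.202 to 0.382), whereas cells called female had 10.9 CPM from 6 UMIs and 28.9 CPM from 64 UMIs, a ratio of 2.66 (1.16 to 7.52). Thinned to 1000 UMIs, 3.80% (2.56 to 5.41) and 1.71% (0.885 to 2.96) of monocyte-like cells had a Slc16a1 UMI. Unthinned shares were 23.2% and 12.8%.

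**Figure D3:**
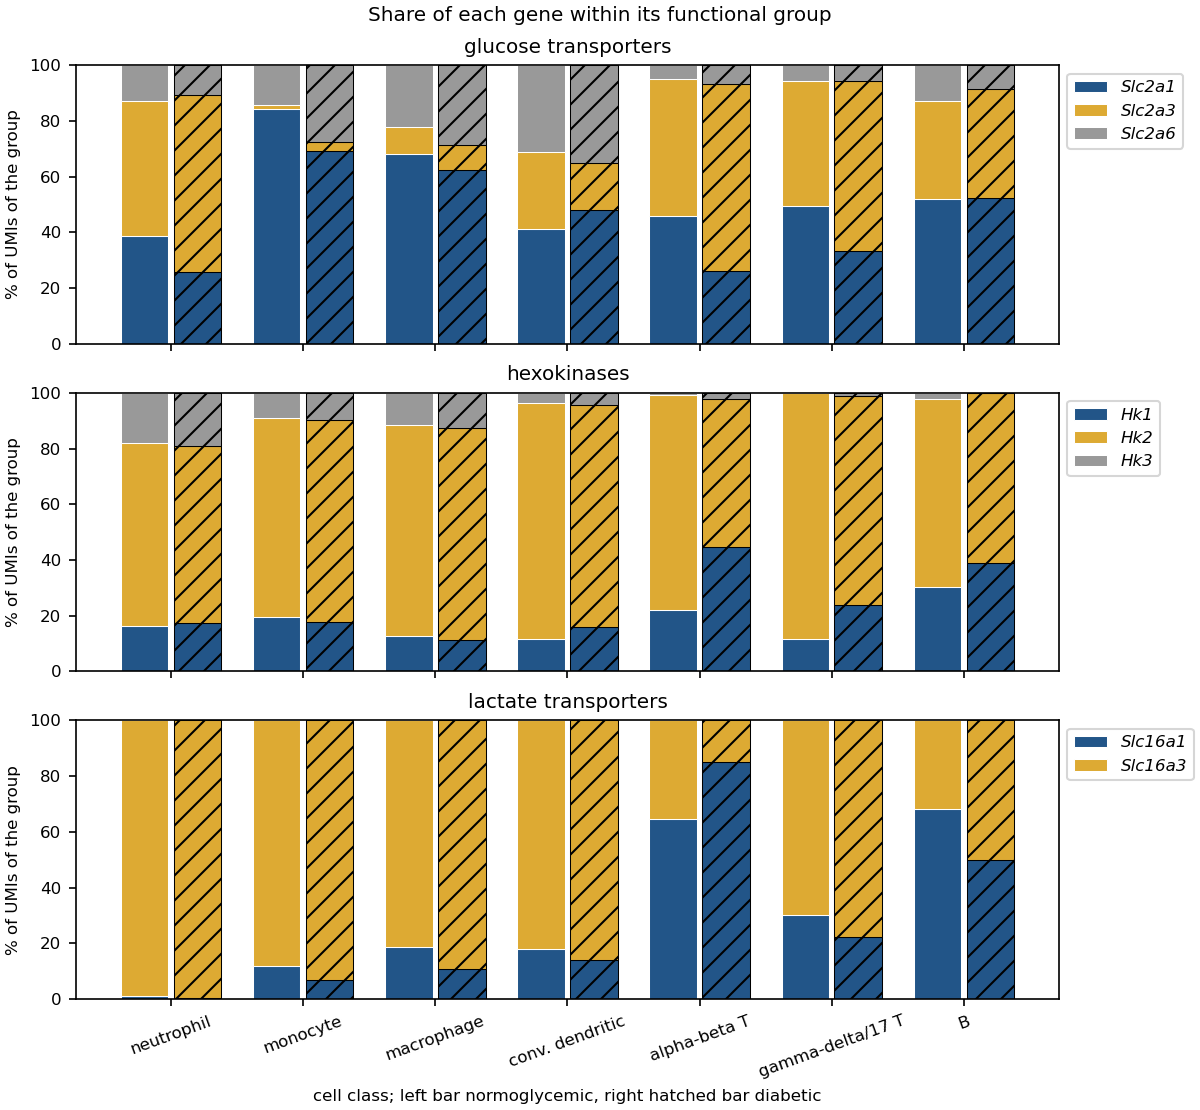
Share of each gene in the UMIs of its functional group (percent) by class, with the normoglycemic library as the plain left bar and the diabetic as the hatched right bar. In neutrophil-like cells Slc2a3 grows from 48.7% to 63.5% of transporter UMIs, and Slc16a1 is the larger lactate carrier in alpha-beta T-like cells in both libraries.

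Neutrophil-like cells were split further, since their states differed between the libraries. Cells with the Retnlg-high markers numbered 1330 and 2721, and cells with chemokine markers such as Ccl3 and Cxcl2 numbered 2362 and 639. Slc2a3 was higher in the Retnlg-high state (403 and 564 CPM) than outside it (256 and 368 CPM). The ratio between libraries was 1.40 inside and 1.44 outside it, and 1.26 in the chemokine state, each below the 1.58 of the whole class. Slc16a3 likewise had ratios of 1.38, 1.26 and 1.13. Hk2 had 0.650 (0.594 to 0.712) inside the Retnlg-high state, 0.738 outside it and 0.701 in the chemokine state. As CPM, the difference of these 3 genes kept its direction within each of these states. TMM scaling, which shifted the log2 ratios of the whole class by -0.23, was not applied within the states. The direction of the ratios nearest 1 may therefore depend on the scaling. This split was chosen after seeing the data.

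**Figure D4:**
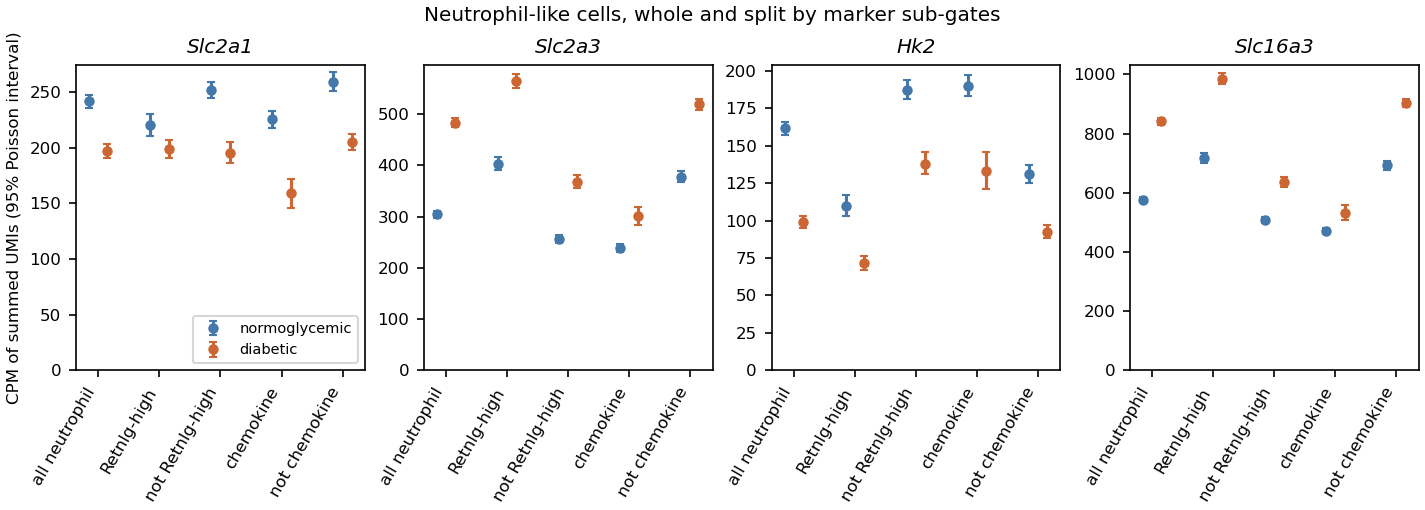
CPM of 4 genes in all neutrophil-like cells and within marker sub-gates, for the normoglycemic (blue) and diabetic (orange) library, with exact 95% Poisson intervals. Slc2a3 and Slc16a3 are higher in the diabetic library in each sub-gate shown, while Slc2a1 and Hk2 are lower.

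The pyruvate dehydrogenase kinases were low. Pdk1, a gene that HIF-1 induces, was highest in alpha-beta T-like cells at 16.7 and 17.3 CPM, and Pdk3, an X-linked gene, in conventional dendritic-like cells at 29.6 and 27.4 CPM. The calls of Pdk3 as higher in gamma-delta or type 17 T-like and B-like cells rest on 16 and 17 UMIs, and on 20 and 17 UMIs, with intervals of 0.741 to 3.30 and 0.744 to 3.04. In B-like cells the ratio was 0.488 in cells called male and 3.20 in cells called female. Pdk4, the form linked to fasting and fat use, had 8 and 165 UMIs in all cells. Of the diabetic UMIs, 31 were in neutrophil-like cells (1 in the normoglycemic library, ratio 41.1, 6.85 to 1675), 39 in keratin epithelial-like, 33 in fibroblast-like and 27 in mural-like cells. Of the 31 in neutrophil-like cells, 17 were in the 266 cells called female (9.54 CPM) and 11 in the 1946 called male (1.27 CPM). Whether the UMIs in neutrophil-like cells were free RNA was not tested.

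Hif1a was highest in monocyte-like cells, at 875 and 697 CPM with a ratio of 0.796 (0.768 to 0.824). It was 0.876 (0.837 to 0.916) in cells called male and, with 430.5 and 556 CPM, 1.29 (1.12 to 1.49) in cells called female. In neutrophil-like cells it was at 319 and 379 CPM, a ratio of 1.19 (1.15 to 1.23) that became 1.02 with TMM scaling and a log2 ratio of -0.02 with size factors. Thinned to 1000 UMIs, 54.8% and 47.1% of monocyte-like cells had a Hif1a UMI, and 24.3% and 27.9% of neutrophil-like cells. At the pentose phosphate entry, the X-linked G6pdx and Pgd, which together make NADPH, showed no class at 1.5-fold, with Pgd at 109.8 and 105 CPM in monocyte-like cells and at 84.1 and 102 CPM in macrophage-like cells.

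Other genes around the pathway were taken from 9 lists. The hypoxia-inducible factor list, 22 genes that regulate or answer HIF, had a negative median log2 ratio in all 7 classes, with either scaling. Before TMM scaling, the interval of that median lay wholly below 0 only in monocyte-like (-0.63 to -0.10) and alpha-beta T-like cells (-0.89 to -0.15). In the other classes it reached above 0. The median of all genes was itself negative in both T-like classes (-0.11 and -0.12) and in B-like cells (-0.25). In neutrophil-like cells 16 genes of the list were measured, 0 higher and 7 lower. Their median log2 ratio was -0.48 (-0.72 to 0.06) beside 0.16 for all genes, of which 11.7% were that much lower. With TMM scaling 9 were lower, beside 19.1%. Ndrg1, a stress-induced gene, was at 101 and 35.2 CPM (ratio 0.349, 0.322 to 0.379), and Egln3, which encodes a HIF prolyl hydroxylase that HIF itself induces, at 97.0 and 40.4 CPM (0.416, 0.385 to 0.450). Ero1l, an oxidase of the endoplasmic reticulum, was at 410.0 and 254 CPM, and Ankrd37 at 29.0 and 16.5 CPM. Monocyte-like cells had 0 of 17 higher and 5 lower (median -0.33), beside 8.74% of all genes lower, with Ndrg1 at 141 and 60.7 CPM and Egln3 at 24.7 and 12.9 CPM. Alpha-beta T-like cells had 0 of 18 higher and 8 lower (median -0.38), beside 16.2% of all genes lower, with Ero1l at 106 and 40.9 CPM and Egln3 at 25.4 and 7.87 CPM. B-like cells had 2 of 17 higher and 7 lower, beside 7.56% and 26.4% of all genes. Macrophage-like cells had 0 of 16 higher and 1 lower, beside 2.63% and 3.92%. Gamma-delta or type 17 T-like cells had 3 of 18 higher and 3 lower, beside 7.75% and 17%, so their lower share was that of all genes. Conventional dendritic-like cells were mixed, with 1 of 15 higher and 4 lower, beside 4.45% and 6.96% of all genes: Vegfa, the vascular growth factor, was at 36.7 and 11.9 CPM, but Ddit4, a stress inhibitor of mTORC1, at 64.6 and 119 CPM.

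**Figure D5:**
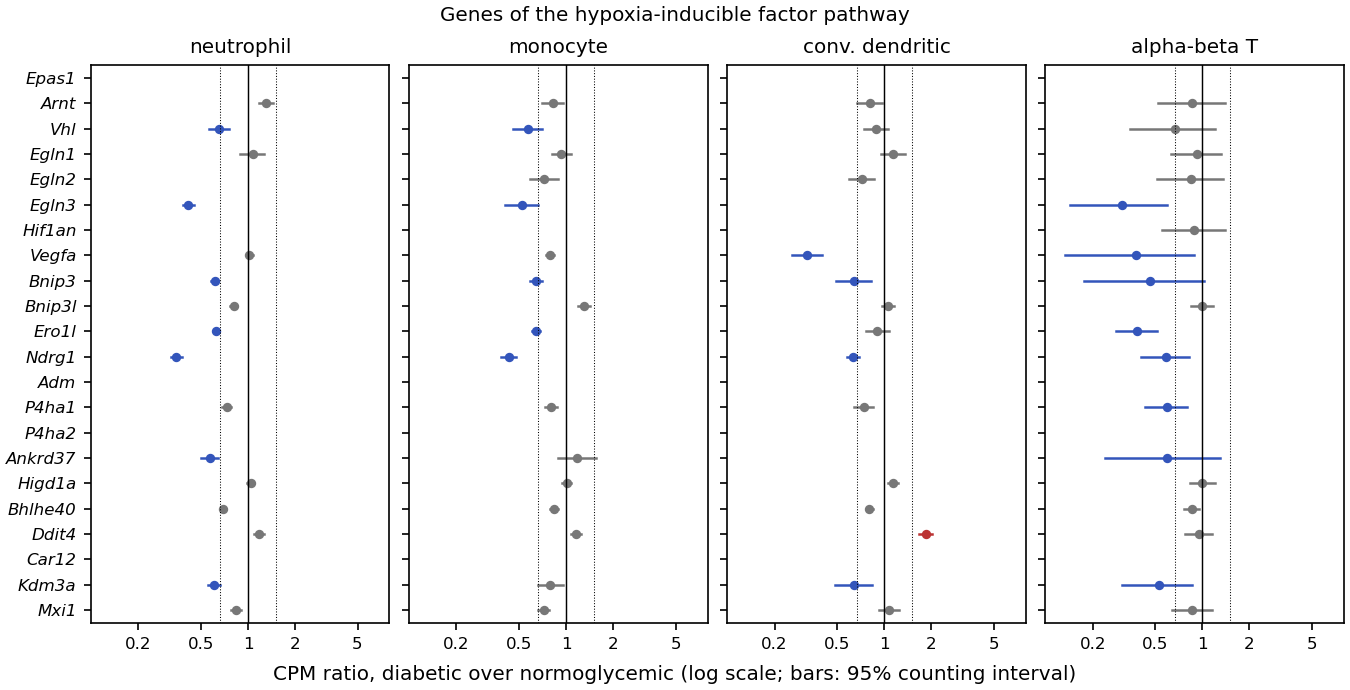
Ratio of CPM, diabetic over normoglycemic, of the genes on the hypoxia-inducible factor list measured at 10 CPM or more (log axis, exact 95% counting intervals) in 4 classes. Blue points are at least 1.5-fold lower: 7 of 16 genes in neutrophil-like, 5 of 17 in monocyte-like, 4 of 15 in conventional dendritic-like and 8 of 18 in alpha-beta T-like cells, with Ddit4 the red point.

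Genes of other routes for glucose carbon were mixed in neutrophil-like cells, where 17.1% of all genes were at least 1.5-fold higher (7.19% with TMM scaling). All 3 measured genes of the pentose phosphate list were higher, among them the transketolase Tkt at 28.9 and 49.7 CPM and the lactonase Pgls at 17.6 and 29.8 CPM. On the list of pyruvate entry into mitochondria 3 of 5 were higher and 0 lower, with the carrier subunit Mpc2 at 25.2 and 50.8 CPM (ratio 2.01, 1.83 to 2.21). Of the tricarboxylic acid cycle 3 of 9 were higher and 0 lower, among them the malate dehydrogenase Mdh2 at 40.0 and 68.0 CPM, and the glycogen list had 2 of 5 higher and 1 lower, with the glycogen primer Gyg at 34.3 and 67.6 CPM. After TMM scaling these 4 lists had medians of 0.54, 0.36, 0.25 and 0.13, and 0 of 3, 1 of 5, 0 of 9 and 1 of 5 genes remained at 1.5-fold higher. The glucose sensing and hexosamine list had 0 of 7 higher, 1 lower and a median of 0.00. In monocyte-like cells 2 of 6 pentose phosphate genes were higher (1 with TMM scaling), Pgls at 85.6 and 152 CPM, and 1 of 13 genes of the tricarboxylic acid cycle, beside 8.71% of all genes. That cycle's list had 0 of 13 higher and 0 lower in macrophage-like and alpha-beta T-like cells.

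On the lists of regulators and of glucose sensing and hexosamine synthesis, most genes differed by less than 1.5-fold outside B-like cells, where 4 of 7 genes of the sensing and hexosamine list were lower (2 with TMM scaling), beside 26.4% of all genes (15.5%). None of 6 regulators measured in neutrophil-like cells and none of 10 in monocyte-like cells reached 1.5-fold. Nfe2l2, the NRF2 regulator of antioxidant genes, was at 583 and 371 CPM in conventional dendritic-like cells, a ratio of 0.636 (0.610 to 0.664). Uap1, a late enzyme of the hexosamine pathway, was at 61.2 and 23.6 CPM in alpha-beta T-like cells. Rptor, a subunit of mTORC1, was at 21.4 CPM (35 UMIs) and 4.34 CPM (4 UMIs) in B-like cells. Of the 25 other isoforms, at most 4 reached 10 CPM in any class. The gluconeogenesis list had at most 2 of 7 measured.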

How the data were processed

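The authors deposited raw UMI counts per gene and cell from 2 Chromium 3′ libraries, made with Cell Ranger (4.0.0 per the file headers, 6.0.2 per the submitters' processing notes) on mm10. The normoglycemic matrix held 11280 barcodes with 89339733 UMIs and the diabetic 10496 with 78220582. The 4 antibody capture features were not used. The members and lists, and the gates, were chosen with earlier results of these data known.

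Cells needed at least 500 UMIs, 200 genes and at most 15% mitochondrial UMIs, which removed 332 and 236. Scrublet called 2 and 0 doublets, so it had not worked, and an alternative removed the 959 and 842 highest scores. Counts were summed per class and library and scaled to CPM. Ratios have exact conditional binomial 95% intervals, levels exact Poisson and shares Clopper-Pearson intervals. Log2 ratios used a pseudocount of 0.5. Each condition is 1 library, so no p-value was computed. Within a class, members at 20 CPM or more were named when the interval lay wholly beyond 1.5-fold or when they led their step. Others are named by role, and up to 4 genes per list and class by the same interval rule. Aldoa has 2 gene identifiers, of which only 1 had UMIs, and Mgea5 was not found. The ratio code was tested on simulated data. Python 3.11.15, scipy 1.17.1, scanpy 1.11.5, edgeR 4.0.16 (TMM) and DESeq2 1.42.0 (size factors) were used. The cell filter, gate, clustering, scaling, weights, doublets, sex calls, low-value filter, pseudocount and fold were varied.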

Additional observations from a re-analysis of the deposited data

Results flagged for a closer look

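Slc2a3 stood in opposite directions in 2 classes. Its ratio of CPM, diabetic over normoglycemic, was 1.58 in neutrophil-like cells and 0.469 in conventional dendritic-like cells, and the 95% counting intervals lay on opposite sides of 1. The difference between the classes was not tested, since each condition is 1 library.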

How the results depend on the processing

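The values below depend on 1 library per condition, and the choice of scaling in neutrophil-like cells, the small T-like and B-like classes (down to 146 cells) and the few cells of some sex calls limit them. For the 47 pairs of gene and class selected for this comparison, 12 settings gave 564 ratios. Of these, 446 stayed within the counting interval of the reported value and 117 left it. The remaining ratio, in cells called female, was in neither count. In all, 42 changed sign. In 1 of them the reported interval lay wholly beyond 1.5-fold: the log2 ratio of Slc16a1 in monocyte-like cells was 1.31 in cells called female. Other members, among them Pfkfb3, Hif1a and Hk3, also turned in cells called female, with values beside their results. The Slc2a3 ratio in neutrophil-like cells stayed above 1 in 12 of 12 settings and at 1.5-fold in 9. In cells called female the median log2 ratio of the members was 0.29 in neutrophil-like cells (-0.08 over all cells), 0.29 in macrophage-like cells and 0.08 in monocyte-like cells (-0.21), so that it turned sign in neutrophil-like and monocyte-like cells. In cells called male it turned from -0.04 to 0.18 in gamma-delta or type 17 T-like cells and was -0.08 in B-like cells.

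The number of members at 1.5-fold or more, in either direction, moved as follows. With TMM scaling it was 7 in neutrophil-like and 5 in monocyte-like cells, and with size factors 7 and 6. With no filter on low values it was 7 in neutrophil-like, 6 in monocyte-like, 2 in macrophage-like, 4 in conventional dendritic-like and 14 in B-like cells. With at least 50 CPM it was 0 in macrophage-like, 0 in conventional dendritic-like, 2 in alpha-beta T-like, 1 in gamma-delta or type 17 T-like and 3 in B-like cells. At 2-fold it was 0 in neutrophil-like, 1 in monocyte-like, 1 in conventional dendritic-like, 3 in gamma-delta or type 17 T-like and 4 in B-like cells. Cells called female gave 5 in monocyte-like, 5 in macrophage-like, 8 in conventional dendritic-like and 7 in alpha-beta T-like cells, and cells called male 0 in conventional dendritic-like and 7 in alpha-beta T-like cells. In conventional dendritic-like cells clusters gave 1 and the stricter gate 4. In gamma-delta or type 17 T-like cells the stricter gate and the removal of doublet scores gave 3 each. With clusters, 0 members had their highest diabetic level in gamma-delta or type 17 T-like cells. With TMM scaling the median of the tricarboxylic acid cycle list was 0.14 in alpha-beta T-like, 0.10 in gamma-delta or type 17 T-like and 0.14 in B-like cells. Other settings stayed within 1.5 times the reported count. The causes were not tested. No paired analysis was possible because each condition has 1 library.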
